A study of Mus musculus with 12 samples.

Results

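The glucocorticoid receptor and the genes that answer to it were examined in gut epithelial cells of mice that lack 1 copy of the large isoform of *Chd8*, a chromatin remodeler. The set of 10 genes comprised the receptor gene *Nr3c1*, 6 genes known to respond to it (*Tsc22d3*, *Klf9*, *Sgk1*, *Fkbp5*, *Zbtb16* and *Dusp1*) and 3 genes of steroid handling (*Hsd11b2*, *Cyp11a1* and *Nr5a2*), named by symbol. The set was chosen by values measured in these same libraries, namely the genotype difference of *Tsc22d3*, so differences between genotypes in the set are given as a description without a test. Of the 10 genes, 9 had a row among the 14244 rows of the expression table, and 8 passed the filter, a mean of 10 or more normalized counts, and entered the fit across 12808 genes. *Zbtb16* was not analysed here, and *Cyp11a1* lay under the filter.

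Poly(A) RNA was sequenced from 5 wild type (WT) and 7 heterozygous Chd8L+/- mice, with 1 library per mouse. Both groups were C57BL/6 male littermates, 8 weeks old and untreated as far as the labels say. The deletion was carried in the germline, so that every cell of the body was heterozygous and not the epithelium alone. The labels name the tissue as gut without saying which segment. Values are normalized counts, which are reads per gene divided by a size factor of the library, and log2 fold changes compare Chd8L+/- with WT on the scale of log2(normalized count + 1).

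Glucocorticoids are adrenal steroids that bind a receptor held in the cytoplasm by chaperones. The bound receptor moves to the nucleus, where it raises or lowers the transcription of target genes, many of which carry a palindromic glucocorticoid response element. In the intestine, glucocorticoids are known for restraining inflammation, for promoting maturation of the epithelium and for regulating salt transport, and the epithelium can also make corticosterone locally.

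Between 15691662 and 20761315 reads per library were recovered from the deposited values. The targeted gene *Chd8* averaged 953 ± 85.5 normalized counts in the 5 WT and 1297 ± 123 in the 7 Chd8L+/- libraries (SD), which was higher and not lower in the heterozygotes (log2 fold change 0.44, adjusted p = 0.121 by limma). All 7 Chd8L+/- values lay above all 5 WT values, and the difference was past the threshold by DESeq2 (adjusted p = 0.0038) and by limma without WT replicate 2 (log2 fold change 0.48, adjusted p = 0.0068). A count over the whole gene does not separate the deleted exons from the rest. By real-time PCR of Chd8L+/- gut epithelial cells, the paper reports less RNA of the deleted exons and more of an exon outside the deletion. It also reports less CHD8 protein in the gut by staining. All 8 markers of epithelium passed the filter, and 6 of them had negative log2 fold changes (median -0.17). Their sum ran from 141441, in WT replicate 2, to 271186 normalized counts in WT, and from 139647 to 260296 in Chd8L+/- libraries. WT replicate 2 stood apart from the other 4 WT libraries. On the first principal component, which held 39.7% of the variance, it lay at 41.0, beside a range of -67.5 to -26.2 for the other WT and of 0.26 to 42.7 for the Chd8L+/- libraries. Its summed crypt and cell cycle markers reached 21914 normalized counts, against 5884 to 12479 in the other WT and 13700 to 25118 in the Chd8L+/- libraries. Its villus enterocyte markers summed to 278004, against 561938 to 661384 and 242271 to 579481. The genotype difference of each member that passed the filter is therefore given with and without that library. For other genes whose difference is printed, the result without that library is given where the call changed.

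Within the set, mean RNA of the receptor in Chd8L+/- cells was 1.28 times the WT mean. The means of *Tsc22d3* and *Klf9* were 0.543 and 0.546 times those of WT, and that of *Sgk1* was 0.586 times with a wide spread. *Fkbp5* and *Dusp1* differed by less than the spread between mice. The steroid handling genes *Hsd11b2* and *Nr5a2* had higher means in Chd8L+/- cells, and *Cyp11a1* was barely detected in either genotype.

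**Figure D1:**
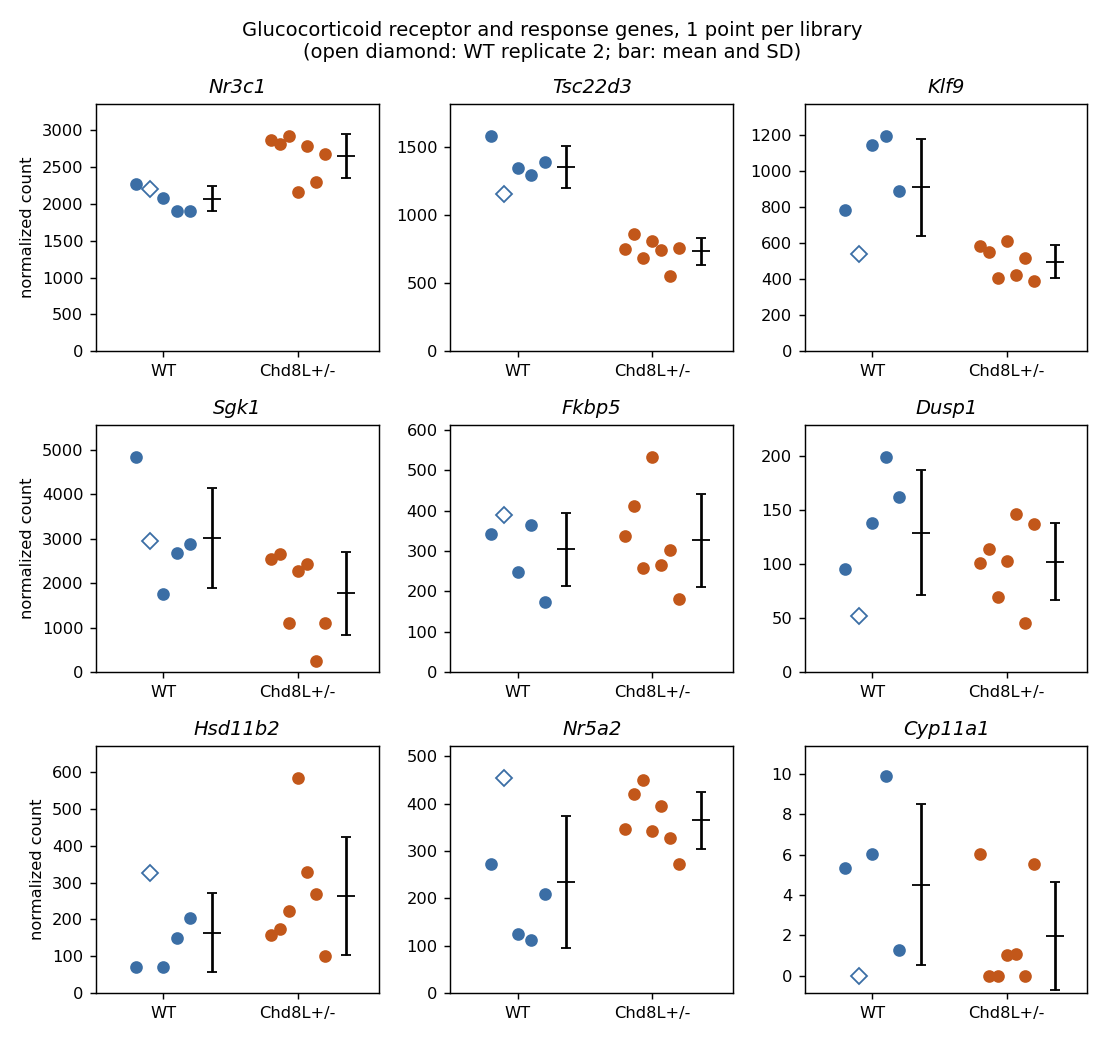
Normalized count (vertical axes, each from about 0) of the 9 measured genes in WT and Chd8L+/- libraries, 1 point per library, with the open diamond for WT replicate 2 and bars for the mean and SD. The 7 Chd8L+/- values of *Tsc22d3* lie below all 5 WT values, and WT replicate 2 lies outside the other WT and inside the Chd8L+/- range for *Klf9*, *Fkbp5*, *Dusp1*, *Hsd11b2* and *Cyp11a1*.

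*Nr3c1* encodes the glucocorticoid receptor and lies on chromosome 18 from 39410545 to 39519421 on the minus strand (GRCm38, as are all positions here). Its normalized counts in WT replicates 1 to 5 were 2275, 2207, 2076, 1900.2 and 1899.7. In the 7 Chd8L+/- libraries they ran from 2162 to 2926 with a median of 2784. All but 1 of the Chd8L+/- libraries lay above every WT library, the exception being replicate 4. WT averaged 2072 ± 172 (SD, n = 5) and Chd8L+/- cells 2649 ± 297 (SD, n = 7), which made a log2 fold change of 0.35 ± 0.11 (SE), or 0.37 ± 0.11 without WT replicate 2. The value lay between 0.32 and 0.47 across the 23 other settings and left-out libraries.

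*Tsc22d3* encodes GILZ, a leucine zipper protein that is induced by glucocorticoids and mediates part of their anti-inflammatory action. The gene spans chromosome X from 140539528 to 140600659 on the minus strand. WT replicates 1 to 5 had 1579, 1151, 1346, 1293 and 1386 normalized counts. The 7 Chd8L+/- libraries had between 548 and 857, with a median of 746. The genotypes did not overlap, and the lowest WT value, that of replicate 2, was still above the highest Chd8L+/- value, that of replicate 2. In bulk RNA, fewer cells that express a gene and less of its RNA per cell cannot be told apart. The means of 1351 ± 156 (SD, n = 5) and 734 ± 98.8 (SD, n = 7) gave a log2 fold change of -0.88 ± 0.12 (SE), and of -0.94 ± 0.12 without WT replicate 2. These values rested on 1105 to 1777 reads per WT library and 602 to 964 reads per Chd8L+/- library, so counting error was small beside the spread between mice.

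*Tsc22d3* had been chosen for this difference, and its place among all genes is given here only as a description. It was 1 of 3 genes with an adjusted p of 0.05 or less that were lower in Chd8L+/- cells, or 0.0234% of the genes tested, and no gene was called higher by limma or edgeR, whereas DESeq2 called 231 higher and 1599 were higher at an unadjusted limma p of 0.05 or less. *Tsc22d3* was past this threshold in 12 of 23 alternatives and not in the others. The other two were *Hspa1a* and *Hspa1b*, the inducible heat shock proteins, which belong to the list of 10 handling stress markers. That list summed to 10808 to 16423 normalized counts in the other WT libraries, 9505 in WT replicate 2 and 4831 to 10667 in Chd8L+/- libraries, and 9 of its 10 genes had a negative log2 fold change (median -0.58). By the mean of the log2 levels of the list, WT replicate 2 lay at 9.47. The other WT lay at 8.85 to 9.93 and the Chd8L+/- libraries at 7.97 to 9.17. Log2 fold changes were negative for 8 of 8 tuft cell markers (median -1.85), with sums of 8719 to 19383 in the other WT, 2098 in WT replicate 2 and 1198 to 8296 in Chd8L+/- libraries. The sum of 17 leukocyte markers ran from 3878 to 6718 in WT and from 3709 to 9965 in Chd8L+/- libraries, while stroma markers summed to 88.9 to 177 in the other WT, 457 in WT replicate 2 and 103 to 2177 in Chd8L+/- libraries. Log2 fold changes were positive for 8 of 8 stroma markers tested (median 1.72, or 2.14 without WT replicate 2). The part of these cell types and of handling in the *Tsc22d3* difference was not tested.

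The names of the 12 libraries begin with letters whose meaning the sources used here do not give. Within the letters that held both genotypes, the mean log2 difference of *Tsc22d3* was -0.86 for letter A, -0.85 for letter B and -0.93 for letter C, close to the value over all libraries. Letter A held 2 libraries of each genotype, letter B 2 WT and 1 Chd8L+/-, and letter C 1 WT and 3 Chd8L+/-. As the genotypes did not overlap, the sign within a letter could only be negative, so these values are a description. The log2 fold change lay between -0.94 (without WT replicate 2) and -0.81 (quantile normalization) across the 23 alternatives, which include the letter as a block and each library left out.

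**Figure D2:**
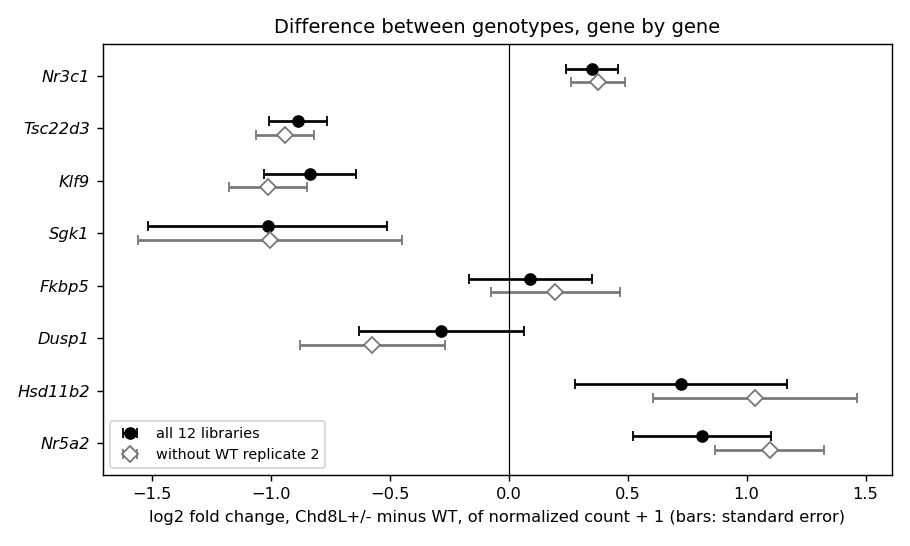
Log2 fold change of normalized count + 1 (horizontal axis, Chd8L+/- minus WT, bars for the standard error) for the 8 genes that passed the filter, from all 12 libraries (filled circles) and without WT replicate 2 (open diamonds). *Tsc22d3*, *Klf9* and *Sgk1* lie to the left of 0 by about as much as *Nr5a2* lies to the right, and leaving out WT replicate 2 moves *Klf9*, *Dusp1*, *Hsd11b2* and *Nr5a2* farther from 0.

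Because both genes come from the same library, the ratio of *Tsc22d3* to *Nr3c1* is free of the size factor. In WT replicates 1 to 5 the ratio of their normalized counts was 0.694, 0.521, 0.648, 0.681 and 0.729. In Chd8L+/- libraries it ran from 0.232 to 0.373. The ranges were separate, with mean ratios of 0.655 ± 0.0800 for WT (SD, n = 5) and 0.280 ± 0.0480 for Chd8L+/- (SD, n = 7). *Tsc22d3* was chosen for its genotype difference and did not overlap, and the receptor was higher in most Chd8L+/- libraries. Separate ratios follow largely from that, so they are given as a description. The ratios to *Nr3c1* of *Klf9*, *Sgk1*, *Fkbp5* and *Dusp1* overlapped between genotypes. For *Klf9* the mean ratio was 0.447 ± 0.155 (SD, n = 5) and 0.192 ± 0.0520 (SD, n = 7), and the overlap came from WT replicate 2 at 0.243. In the plot of the receptor against *Tsc22d3*, the genotypes separate along the axis of *Tsc22d3*, and the Chd8L+/- libraries with the lowest receptor level, replicates 4 and 6, had 806 and 548 normalized counts of *Tsc22d3*, inside and below the range of the other 5.

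**Figure D3:**
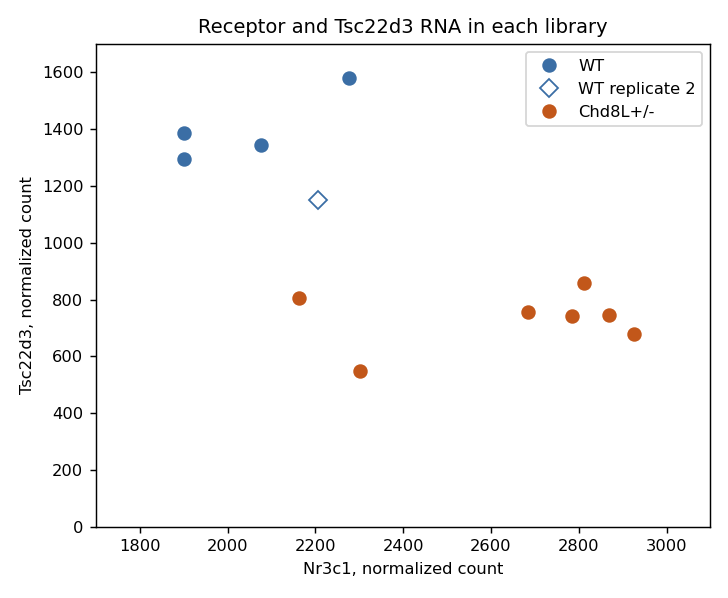
Normalized count of *Nr3c1* (horizontal axis, which does not begin at 0) against that of *Tsc22d3* (vertical axis), 1 point per library, with the open diamond for WT replicate 2. The 5 WT libraries lie at the upper left and 5 of the 7 Chd8L+/- libraries at the lower right.

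Annotated starts of *Tsc22d3* are shown because this gene had the separate levels, and they were searched for the letters of the response element. Promoters, from 250 bases before to 50 bases after each start, were taken from RefSeq (GRCm38.p6) for 7 of the 10 genes, with 16 starts in all. *Nr3c1*, *Zbtb16* and *Hsd11b2* have no entry in that table. The full palindrome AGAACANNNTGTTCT occurred in 3 of 32851 promoters (0.00913%). Its single repeat, TGTTCT or AGAACA on either strand, occurred in 19.0% of all promoters and in 6 of the 16 of this set. Each full palindrome also holds single repeats. In the 3 *Tsc22d3* promoters, printed 5′ to 3′ on the strand of the gene with matches to the response element or its single repeat in capitals, only the last has a single repeat, at -185 from the start. The first and the last hold a GC box (GGGCGG or CCGCCC, in 35.7% of all promoters).
*Tsc22d3* start at chrX:140542619-140542918 (minus strand): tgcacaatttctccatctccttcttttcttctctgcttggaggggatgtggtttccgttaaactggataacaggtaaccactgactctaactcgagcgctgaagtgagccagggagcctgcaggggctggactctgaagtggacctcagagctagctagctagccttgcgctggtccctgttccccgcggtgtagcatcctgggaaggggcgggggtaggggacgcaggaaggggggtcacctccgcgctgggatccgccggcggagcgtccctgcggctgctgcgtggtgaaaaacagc
*Tsc22d3* start at chrX:140548522-140548821 (minus strand): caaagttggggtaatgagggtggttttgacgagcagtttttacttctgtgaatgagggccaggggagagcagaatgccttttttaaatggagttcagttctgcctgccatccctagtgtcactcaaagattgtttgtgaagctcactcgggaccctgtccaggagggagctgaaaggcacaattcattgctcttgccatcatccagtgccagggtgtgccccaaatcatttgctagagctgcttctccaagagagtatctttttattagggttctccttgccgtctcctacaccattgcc
*Tsc22d3* start at chrX:140600473-140600772 (minus strand): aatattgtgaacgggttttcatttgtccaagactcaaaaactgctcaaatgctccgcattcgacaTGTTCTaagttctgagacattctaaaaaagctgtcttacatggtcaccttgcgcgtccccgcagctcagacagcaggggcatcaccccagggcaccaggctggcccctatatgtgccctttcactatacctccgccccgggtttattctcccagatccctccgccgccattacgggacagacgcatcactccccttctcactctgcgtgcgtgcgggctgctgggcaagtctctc
A match is a description of letters, and the absence of one says only that these letters are not in the window.

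*Klf9* encodes a Krüppel-like zinc finger factor that the glucocorticoid receptor induces, and it lies on chromosome 19 from 23141226 to 23168134 on the plus strand. WT replicates 1 to 5 had 781, 537, 1142, 1193 and 890.3 normalized counts. Chd8L+/- libraries had from 390.5 to 613, with a median of 515. WT replicate 2 lay among the Chd8L+/- values, and the other 4 WT libraries lay above all 7 of them. The means were 909 ± 269 (SD, n = 5) and 497 ± 91.0 (SD, n = 7), with a log2 fold change of -0.84 ± 0.19 (SE). Without WT replicate 2 it was -1.01 ± 0.16, the far end of a range that began at -0.72. *Klf9* thus differed by about as much as *Tsc22d3* but with a larger spread in WT. Over the WT replicates its order was that of the tuft marker sums, from 19383 in replicate 4 to 2098 in replicate 2. Chd8L+/- libraries did not share one order, with *Klf9* highest in replicate 4 and the tuft sum in replicate 6. The part of cell types in the *Klf9* difference was not tested. The *Klf9* promoter is shown beside those of *Tsc22d3* for contrast, as it held none of the motifs searched, which were the response element and its single repeat, the cyclic AMP response element TGACGTCA, the heat shock element (alternating GAA and TTC units), the LRH-1 site CAAGGTCA or TGACCTTG, the TATA box TATAAA and the GC box.
*Klf9* start at chr19:23140976-23141275 (plus strand): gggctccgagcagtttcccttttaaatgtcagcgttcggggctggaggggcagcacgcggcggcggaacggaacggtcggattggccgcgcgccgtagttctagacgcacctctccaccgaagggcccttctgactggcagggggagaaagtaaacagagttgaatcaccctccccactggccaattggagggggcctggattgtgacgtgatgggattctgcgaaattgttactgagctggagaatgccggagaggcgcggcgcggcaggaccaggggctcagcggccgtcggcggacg

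*Sgk1* encodes a kinase that responds to glucocorticoids and mineralocorticoids and promotes sodium uptake by epithelia. It lies on chromosome 10 from 21882184 to 21999903 on the plus strand. WT replicates 1 to 5 had 4836, 2934, 1758, 2675 and 2885 normalized counts. Chd8L+/- libraries ranged from 255 to 2658 around a median of 2274. The genotypes overlapped through WT replicate 3 alone, as the other 4 WT libraries lay above all 7 Chd8L+/- libraries, and Chd8L+/- replicates 3, 6 and 7 lay below every WT library. Means were 3018 ± 1122 (SD, n = 5) and 1767 ± 939 (SD, n = 7), and the log2 fold change was -1.01 ± 0.50 (SE), or -1.0 ± 0.55 without WT replicate 2. The single library Chd8L+/- replicate 6 weighed on this value, which was -0.60 without it. Without WT replicate 3 it was -1.19.

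Of the 6 *Sgk1* starts in the promoter table, 1 is shown since it was the only start among the 16 with the full palindrome. The match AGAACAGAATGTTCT begins at -189, and a further single repeat begins at -242. Of the other elements, the LRH-1 site (1.56% of all promoters) was on 2 further starts of *Sgk1*, the TATA box (13.6% of all promoters) on 2 other starts of that gene and 1 of *Nr5a2*, and the cyclic AMP response element (1.79% of all promoters) at -143 of *Dusp1*. The heat shock element (0.603% of all promoters) was in none of the 16.
*Sgk1* start at chr10:21993640-21993939 (plus strand): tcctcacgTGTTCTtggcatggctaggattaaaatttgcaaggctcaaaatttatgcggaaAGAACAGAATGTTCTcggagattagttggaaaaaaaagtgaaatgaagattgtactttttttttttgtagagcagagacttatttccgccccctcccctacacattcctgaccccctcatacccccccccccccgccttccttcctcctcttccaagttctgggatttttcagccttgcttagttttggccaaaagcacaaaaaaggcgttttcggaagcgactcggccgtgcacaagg

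*Fkbp5* encodes a co-chaperone that lowers the affinity of the receptor for its hormone and is itself induced by the receptor, a classical negative feedback. It lies on chromosome 17 from 28399094 to 28517527 on the minus strand. Its normalized counts were 341, 389.6, 247, 365 and 174 in WT replicates 1 to 5. In Chd8L+/- libraries they ran from 182 to 533 with a median of 301. The genotypes overlapped over nearly their whole ranges, with both a low WT library (replicate 5) and a high Chd8L+/- library (replicate 4). The means of 303 ± 90.2 (SD, n = 5) and 327 ± 115 (SD, n = 7) gave a log2 fold change of 0.09 ± 0.26 (SE), and of 0.20 ± 0.27 without WT replicate 2. Its sign was negative without WT replicate 5 (-0.09) and without Chd8L+/- replicate 4 (-0.04).

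*Dusp1* encodes a phosphatase that inactivates MAP kinases and is induced by glucocorticoids and by stress. It lies on chromosome 17 from 26505590 to 26562128 on the minus strand, and its exons overlap those of *Ergic1* on the other strand, so reads of the pair may be mixed where strand was not used. WT replicates 1 to 5 had 95.1, 51.7, 138, 199 and 162 normalized counts. Chd8L+/- libraries had 45.5 to 147 around a median of 103. The ranges overlapped, and WT replicate 2 was the lowest of the WT libraries. WT averaged 129 ± 57.5 (SD, n = 5) against 102 ± 35.8 in Chd8L+/- cells (SD, n = 7). The log2 fold change was -0.28 ± 0.35 (SE), with values of -0.57 ± 0.30 when WT replicate 2 was left out and -0.09 when WT replicate 4 was.

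*Hsd11b2* encodes the dehydrogenase that inactivates corticosterone and so shields the mineralocorticoid receptor in salt-transporting epithelia, the distal colon among them. Its locus is on chromosome 8 from 105518755 to 105523988 on the plus strand. WT replicates 1 to 5 had 71.1, 327, 69.6, 149 and 204 normalized counts. Chd8L+/- libraries had 99.8 to 585, with a median of 223. The genotypes overlapped, with WT replicate 2 the highest of the WT and Chd8L+/- replicate 4 the highest of all. Means of 164 ± 107 (SD, n = 5) and 263 ± 161 (SD, n = 7) gave a log2 fold change of 0.72 ± 0.45 (SE), or 1.03 ± 0.43 without WT replicate 2. The sum of the colon markers that had a row, 6 of the 8 in the list, ran from 459 to 5967 in WT and from 497 to 20640 in Chd8L+/- libraries, and replicate 4, the highest for *Hsd11b2*, was also the highest for this sum. Without that library the log2 fold change was 0.50. The part of the gut segment sampled in this difference was not tested.

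*Nr5a2* encodes LRH-1, a nuclear receptor of crypt cells that drives the local synthesis of corticosterone in the intestine. Its locus is on chromosome 1 from 136842571 to 136960448 on the minus strand. WT replicates 1 to 5 had 273, 455, 125, 111 and 209 normalized counts. Chd8L+/- libraries had 273 to 449 around a median of 346. WT replicate 2 was the highest library of either genotype, whereas the other 4 WT libraries did not exceed the lowest Chd8L+/- library, with replicate 1 of WT (272.877) and replicate 7 of Chd8L+/- (272.890) nearly equal. The means were 235 ± 139 (SD, n = 5) and 365 ± 60.2 (SD, n = 7), with a log2 fold change of 0.81 ± 0.29 (SE) and of 1.10 ± 0.23 without WT replicate 2. Crypt and cell cycle markers, whose sums are given above, were likewise lowest in WT libraries other than replicate 2, and their part in the *Nr5a2* difference was not tested.

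*Cyp11a1* encodes the enzyme that cleaves the side chain of cholesterol, the first step of steroid synthesis. The gene spans chromosome 9 from 58006411 to 58027023 on the plus strand and shares exon sequence with *Gm17322* on the same strand. Only 23 reads fell on it over the 5 WT libraries, at most 10 in any of them, and 14 reads over the 7 Chd8L+/- libraries, at most 7 in any. It had 0 reads in 1 of 5 WT and 3 of 7 Chd8L+/- libraries, and a count of 0 allows up to 3 reads, or 0.179 counts per 1e6 reads in that WT library and 0.154 to 0.169 in those Chd8L+/- libraries. These limits cover counting error only. The genotypes were not compared by a test for this gene.

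**Figure D4:**
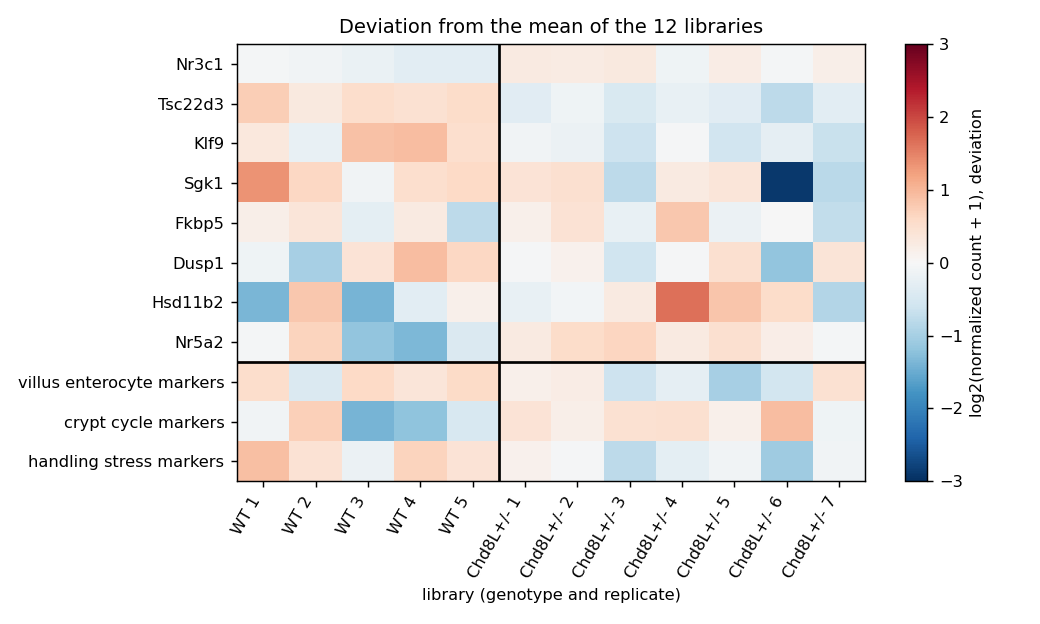
Deviation of log2(normalized count + 1) from its mean over the 12 libraries (color, red for higher and blue for lower) for the 8 genes that passed the filter and for the mean of these log2 levels over the villus enterocyte, crypt cycle and handling stress markers, with 1 column per library and a black line between genotypes. The column of WT replicate 2 has the colors of most Chd8L+/- columns for *Klf9*, *Nr5a2* and the villus and crypt markers. For *Tsc22d3* and the handling stress markers it lies above all Chd8L+/- columns.

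WT replicate 2 did not take the same place for every gene. For *Tsc22d3* it lay below the other WT and above all Chd8L+/- libraries, for *Nr3c1* and *Sgk1* inside the range of the other WT, and for *Klf9*, *Fkbp5*, *Dusp1*, *Hsd11b2* and *Cyp11a1* outside the other WT and inside the Chd8L+/- range. For *Nr5a2* it lay above the other 11 libraries.

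Over the 8 genes that passed the filter, 4 log2 fold changes were negative and 4 positive, with a median of -0.10, while over all genes tested 48.6% were negative and the median was 0.014. Groups that did not overlap were found only for *Tsc22d3* in the set, and in 0.273% of all genes in the lower and 0.242% in the higher direction. At an unadjusted limma p of 0.05 or less, 2 of the 8 genes were lower and 2 higher, against 11.8% and 12.5% of all genes. Without WT replicate 2, an adjusted p of 0.05 or less was reached by 2 lower (*Tsc22d3* and *Klf9*) and 2 higher (*Nr3c1* and *Nr5a2*), but also by 13.6% of all genes in the lower and 14.0% in the higher direction (27.6% together). DESeq2 on the recovered reads gave 2 lower and 1 higher, against 4.61% and 1.84% of the genes it tested (6.44% together). With the library letter as a block in limma, 2 were lower (*Tsc22d3* and *Klf9*) and 0 higher, against 2.15% and 1.37% of all genes (3.52% together). As the set was chosen with these differences in view, nothing is read from these counts.

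Levels were compared between genes only per length, as normalized count per kilobase of exon. Exon length was that of all annotated exons of a gene together, so genes with several starts may be given too low a level. In WT the order by mean level per kilobase was *Sgk1* (616 ± 229), *Tsc22d3* (311 ± 35.9), *Nr3c1* (269.6 ± 22.4), *Klf9* (189 ± 56.0), *Hsd11b2* (89.2 ± 58.2), *Nr5a2* (39.8 ± 23.6), *Dusp1* (39.0 ± 17.4), *Fkbp5* (32.0 ± 9.52) and *Cyp11a1* (0.939 ± 0.828), each with SD and n = 5. The ranges of neighbours in this order overlapped, except those of *Fkbp5* and *Cyp11a1*, although *Sgk1* lay above *Tsc22d3* within each of the 5 libraries. In Chd8L+/- libraries the receptor moved above *Tsc22d3* in the order, with a mean level per kilobase of 345 ± 38.7 for *Nr3c1* and 169 ± 22.8 for *Tsc22d3* (SD, n = 7) and no overlap between the pair. That change of places restates the *Tsc22d3* difference for which the set was chosen. *Sgk1* stayed first at 360.4 ± 191, and *Hsd11b2* (143 ± 87.5) and *Klf9* (103 ± 18.9) changed places. The ranges of both these pairs of neighbours overlapped, with *Sgk1* above *Nr3c1* in 4 of 7 libraries and *Hsd11b2* above *Klf9* in 4 of 7. *Nr5a2* followed at 61.8 ± 10.2, then *Fkbp5* at 34.5 ± 12.2, *Dusp1* at 30.9 ± 10.8 and *Cyp11a1* at 0.407 ± 0.556.

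Whether other genes of the set followed *Tsc22d3* from mouse to mouse was tested within the 7 Chd8L+/- libraries alone, since the choice of the set did not rest on that spread. The highest correlation of log2 levels was that of *Sgk1*, with Pearson r = 0.91 (exact two-sided permutation p = 0.0220, adjusted p = 0.101 over 7 pairs) and Spearman rho = 0.61 (exact p = 0.167, adjusted p = 0.622). *Dusp1* came next with r = 0.82 (exact p = 0.0288, adjusted p = 0.101) and rho = 0.54 (exact p = 0.236, adjusted p = 0.622). Neither passed the adjustment. Chd8L+/- replicate 6 was the lowest of the 7 for *Tsc22d3*, *Sgk1* and *Dusp1*. With replicates 2 and 6 left out, the libraries farthest from the median of *Tsc22d3*, r over the 5 that remained was 0.51 for *Sgk1* and 0.54 for *Dusp1*. The high values thus depended on those libraries, although leaving out the extremes narrows the range of *Tsc22d3* and by itself tends to lower a high r. For the other 5 genes r lay between -0.06 and 0.33 with adjusted exact permutation p of 0.870 to 0.890. With the same 2 libraries left out, r became -0.84 for *Nr3c1*, -0.65 for *Nr5a2*, 0.36 for *Hsd11b2*, 0.54 for *Fkbp5* and 0.62 for *Klf9*. These values too changed with those libraries, and 5 libraries are too few to read more from them. Letters of the library names held at most 3 Chd8L+/- libraries each, too few for a value within a letter.

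Across all 12 libraries after subtracting each genotype's mean, the genes with the levels most like *Tsc22d3* were *Dnajb4* (Pearson r = 0.94), *Acaa1b* (0.92), *Pmaip1* (0.92), *Ptp4a1* (0.90) and *Gal3st2c* (0.88), on log2(normalized count + 1). Among 12807 genes, *Sgk1* ranked 35 with r = 0.81 and *Dusp1* ranked 719 with r = 0.61, and the other members ranked from 3773 for *Klf9* to 9812 for *Hsd11b2*. Chd8L+/- replicate 6, the lowest Chd8L+/- library for *Tsc22d3*, *Sgk1* and *Dusp1*, was among the 12. How far the ranks rest on that library was not tested. These correlations are a description over libraries that share their handling and depth.

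Other genes of the glucocorticoid pathway, from 3 lists with 70 genes, were compared in the same fit, and 61 of them passed the filter. No gene of the lists had an adjusted p of 0.05 or less by limma or by edgeR on the recovered reads, where 0.039% of all genes were called lower. At an unadjusted limma p of 0.05 or less, 9 were lower (14.8%) and 5 higher (8.20%), beside 11.8% and 12.5% of all genes. DESeq2 called 3, namely *Ddit4* and *Rgs2* lower and *Med1* higher, while it called 4.61% of all genes lower and 1.84% higher. Without WT replicate 2, 7 were called lower (11.5%) and 8 higher (13.1%), beside 13.6% and 14.0% of all genes. The part of cell types in the differences of these genes, given below, was not tested.

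Partners of the receptor, its chaperones and co-regulators had mostly positive log2 fold changes, in 15 of 17 genes, with a median of 0.29. Beside this list and those below, 48.6% of all genes had negative values, and their median was 0.014. The lists were chosen with earlier results of these data known, so these counts are a description. *Med1*, a Mediator subunit that binds nuclear receptors, had 801 ± 97.2 normalized counts in WT and 993 ± 73.4 in Chd8L+/- cells (log2 fold change 0.32 ± 0.10 SE, limma adjusted p = 0.125). *Smarca4*, the ATPase of the BAF remodeling complex, had 1694 ± 327 and 2119 ± 241 (0.34 ± 0.14 SE, adjusted p = 0.163). *Crebbp*, an acetyltransferase recruited as a coactivator, had 612 ± 141 and 797 ± 131 (0.39 ± 0.16 SE, adjusted p = 0.162). The 2 genes with negative values were the mineralocorticoid receptor *Nr3c2* (-0.19 ± 0.20 SE, adjusted p = 0.566) and the constitutive chaperone *Hspa8* (-0.19 ± 0.18 SE, adjusted p = 0.519). None of these differences passed the limma threshold over all libraries. Without WT replicate 2, *Med1* (limma adjusted p = 0.0196), *Crebbp* (0.0237) and *Smarca4* (0.0309) passed it, with log2 fold changes of 0.36, 0.51 and 0.42. They were among 6 of the 17 genes called higher in that fit, beside 14.0% of all genes.

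Among 31 other response genes, 20 had negative and 11 positive log2 fold changes, with a median of -0.28. *Ddit4*, an inhibitor of mTORC1 signalling, was the 1 gene among the 61 of the lists whose genotypes did not overlap, beside 0.273% of all genes in the lower direction. It had 640.0, 656.5, 636, 847 and 686 normalized counts in WT replicates 1 to 5. In Chd8L+/- libraries it ran from 233 to 525, and its log2 fold change was -0.83 ± 0.18 (SE, limma adjusted p = 0.121). *Rgs2*, which damps G protein signalling, had 588 ± 231 and 282 ± 66.6 (-1.0 ± 0.23 SE, adjusted p = 0.121). *Gadd45b*, a stress sensor, had 187 ± 28.0 and 121 ± 37.2 (-0.66 ± 0.21 SE, adjusted p = 0.122). The genes with the smallest p among those with positive values were *Arrdc3* (0.33 ± 0.13 SE, adjusted p = 0.148), *Mt2*, a metallothionein (0.76 ± 0.45 SE, adjusted p = 0.308), and *Map3k6* (0.81 ± 0.54 SE, adjusted p = 0.354). When WT replicate 2 was left out, *Rgs2* (limma adjusted p = 0.0038), *Ddit4* (0.0092), *Gadd45b* (0.0236), *Arrdc3* (0.0267) and *Mt2* (0.0393) passed the threshold, and the log2 fold change of *Mt2* was then 1.17 ± 0.39 (SE). That fit called 6 of the 31 genes lower and 2 higher, beside 13.6% and 14.0% of all genes. Of the list, *Il1r2* was not analysed here.

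For steroid synthesis and turnover, 13 of 21 genes passed the filter, 7 with negative and 6 with positive log2 fold changes and a median of -0.10. *Stard3*, which moves cholesterol between membranes, had 1021 ± 272 and 759 ± 96.8 normalized counts (-0.39 ± 0.17 SE, limma adjusted p = 0.179). Its value without WT replicate 2 was -0.56 ± 0.13 (SE), past the threshold (limma adjusted p = 0.0087). *Fdx1*, the electron donor of mitochondrial steroid hydroxylases, had a log2 fold change of -0.30 ± 0.15 (SE, adjusted p = 0.239), and *Tspo*, an outer mitochondrial membrane protein, one of -0.26 ± 0.15 (SE, adjusted p = 0.307). The positive ones were led by *H6pd*, which supplies NADPH to the enzyme that regenerates corticosterone (0.39 ± 0.20 SE, adjusted p = 0.248), *Hsd3b3* (0.60 ± 0.36 SE, adjusted p = 0.306) and *Srd5a1* (0.29 ± 0.20 SE, adjusted p = 0.376). *Hsd11b1*, the regenerating enzyme itself, lay under the filter, and 7 genes of the list, among them *Cyp11b1* and *Cyp17a1*, were not analysed here.

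**Figure D5:**
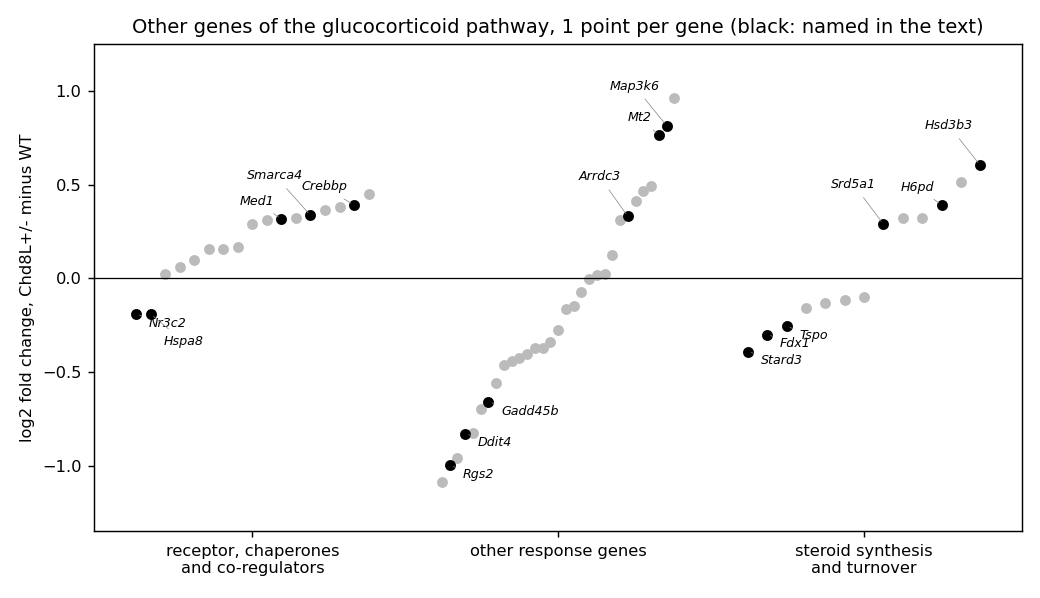
Log2 fold change (vertical axis, Chd8L+/- minus WT) of the 61 other pathway genes that passed the filter, 1 point per gene, ordered by value within each of the 3 lists, with the genes named in the text in black. The points of receptor partners lie mostly above 0 and those of response genes mostly below, and none passed the limma threshold over all 12 libraries.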

How the data were processed

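Gut epithelial cells of 5 WT and 7 Chd8L+/- mice were compared, with 1 library per mouse and groups taken from the labels. Per the paper's methods, single-end reads were mapped by the authors with Tophat2 (mm10) before the DESeq2 pipeline. Each deposited value is a signal, the reads on a gene divided by the size factor of its library. How reads were counted, on which annotation, whether by strand and after which filter is not given in the sources used here. The table held 14244 rows, 21 with names turned into dates and 4 that repeat a name, and 0 columns of other samples. Whole reads were recovered for 100% of the values within 0.01, with a largest deviation of 0.000147. Totals of 15691662 to 20761315 reads per library make counting error largest for genes with few reads.

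The members and the gene lists were chosen with earlier results of these data known. Genotypes were compared over all 12 libraries with limma 3.58.1 (lmFit, eBayes with trend, R 4.3.3) on log2(normalized count + 1), for the 12808 genes that averaged 10 or more, with Benjamini-Hochberg adjustment and a threshold of 0.05. As the table holds normalized values, tests for counts were run only as alternatives, on the recovered reads. Named genes are the 10 members, *Chd8*, in each pathway list every gene past the threshold or else the 3 with the smallest p in each direction (2 where only 2 had that direction), and the 5 genes most like *Tsc22d3* by Pearson r. *Hspa1a* and *Hspa1b* were named after their values were seen, as the other genes past the threshold. Covariation with *Tsc22d3* was tested in the 7 Chd8L+/- libraries by exact permutation. Alternatives were pseudocounts of 0.5 and 5, quantile normalization, no filter, a minimum of 10 in each library, the recovered reads in edgeR 4.0.16 or in DESeq2 1.42.0, a block for replicate number or for library letter, and each library left out. Both count tools without WT replicate 2 were added after seeing the data. The steps were tested on simulated data. Positions and exon lengths are from GENCODE M21 and promoters from RefSeq, with Python 3.11 for the motif search.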

Additional observations from a re-analysis of the deposited data

Results flagged for a closer look

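Single libraries far from the others of their genotype were sought by Dixon's ratio in 50 groups, of which 3 were found where chance gives about 1 in 20 groups, or 2.5. *Sgk1* was low in Chd8L+/- replicate 6, at 8.00 on the scale of log2(normalized count + 1) with 10.1 in the nearest library, and a normalized count of 255. *Smarca4* was low in Chd8L+/- replicate 7, at 10.6 with 11.1 in the nearest library, and a normalized count of 1589.6. *Ddit4* was high in WT replicate 4, at 9.73 with 9.42 in the nearest library, and a normalized count of 847.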

How the results depend on the processing

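The number of genes past the threshold, 3 with all libraries, depended on the tool and on WT replicate 2. It was 5 by edgeR, 811 by DESeq2 and 451 with the library letter as a block, and ran from 0 to 3534 when each library was left out, the highest without WT replicate 2. It was 1 without WT replicate 4 and 8 without Chd8L+/- replicate 6. Without WT replicate 2, edgeR called 3369 and DESeq2 4112. Of the other pathway genes, 0 were called with all libraries, 3 by DESeq2, 1 with the letter as a block and 0 to 15 with each library left out, the highest again without WT replicate 2, where edgeR called 12 and DESeq2 18. With the replicate number as a replicate block, 0 genes were called. Same-numbered libraries did not deviate together over all genes (correlations 0.19, -0.34, -0.13, -0.17 and -0.23). With so few pairs, this cannot exclude that the numbers pair mice. Under that block the log2 fold change of *Sgk1* was -0.44. The log2 fold changes of the 8 members moved by less than 1 SD between replicates in all of these alternatives. That measure is the spread of single libraries and not the SE of the fold change, so it is a loose one. The value of *Sgk1* still ran from -1.19 to -0.44, and that of *Hsd11b2* from 0.48 to 1.22. Signs turned for the member *Fkbp5* in 2 alternatives, both given above. They also turned for *Hspa8* under quantile normalization (0.089) and for *Nr3c2* under the replicate block (0.00046), and the cause was not tested. No member passed the adjusted test of covariation with *Tsc22d3* in any alternative. Among the members, *Cyp11a1* had the fewest reads, at most 10 in any library.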
